A study of Rattus norvegicus with 13 samples.

Results

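Rat macrophage and myeloid genes were followed in mammary carcinomas and normal mammary tissue. The 36 genes were listed by symbol, and 34 of them were matched to a probe of the array through its RefSeq accession. All 34 passed the filter on dim probes, among 25392 genes that passed in all, and Msr1 and Clec7a had no matched probe. The 34 were grouped as 10 macrophage surface receptors, 4 Fc receptors and immunoreceptor adaptors, 3 complement C1q chains and 6 genes of beta2 integrin and the leukocyte cytoskeleton. The rest were 3 subunits of the phagocyte oxidase, 3 lysosomal and antigen-handling genes, the transcription factor Spi1 and 4 neutrophil and monocyte genes. This grouping counts the lysosomal proteins Cd68 and Gpnmb with the surface receptors, and Laptm5 with the integrin and cytoskeleton genes.

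The tissue came from female Sprague-Dawley rats, an outbred stock. The IR-3W group held 4 carcinomas of rats given 2 Gy of whole-body caesium gamma rays at 0.6 Gy per minute at 3 weeks of age, before puberty, and the IR-7W group held 6 carcinomas of rats given the same dose at 7 weeks, after puberty. Both carcinoma groups received a diet with 23.5% corn oil from week 9, and palpable tumours were taken at 50 weeks. The normal group held 3 mammary tissues of rats that were not irradiated. They were described in one label as 7 weeks old and in another as age-matched, with no diet stated. Irradiation, age and diet therefore cannot be told apart from the tumour state in the comparisons with normal tissue. No label states that each array had its own animal, and if some did not, the p-values reflect technical spread in part.

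Macrophages are phagocytes that settle in every tissue, and in the mammary gland they lie along the ducts and within the fat pad. They depend on signals through the receptor Csf1r, and the transcription factor PU.1, encoded by Spi1, sets their gene programme. Several of their surface receptors have no signalling tail of their own and pair with the adaptors Tyrobp and Fcer1g, which recruit tyrosine kinases. The C1q chains are made mainly by macrophages in tissues, and S100a8 and S100a9 are abundant in neutrophils and monocytes. Each array measured RNA of a whole piece of tissue, so fewer cells of a type and less RNA per cell cannot be told apart.

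PU.1 binds purine-rich sites whose core is GAGGAA, and the promoters of the genes below were searched for these letters, or TTCCTC on the other strand, from 250 bases before to 50 bases after the RefSeq gene start (assembly GRCr8). The letters occurred in 27.5% of the promoters of all 27457 genes in the table and in 18 of the 24 listed genes that had an entry (75%). Of the 11 genes that were lower in IR-7W carcinomas, described next, 7 had an entry, and 5 of these held the letters, while those of Coro1a and Cyba did not. All 7 promoters are printed, with and without the letters, because their genes are among the 11 that were lower. Each reads 5′ to 3′ along the strand of the gene, with the letters searched in capitals. That of Trem2 lies at chr9:20151730-20152029 on the minus strand, that of Cd68 at chr10:54882392-54882691 on the minus strand, that of Gpnmb at chr4:79340878-79341177 on the plus strand, that of Laptm5 at chr5:148371630-148371929 on the plus strand, that of Lyz2 at chr7:54797962-54798261 on the minus strand, that of Coro1a at chr1:190731054-190731353 on the minus strand and that of Cyba at chr19:67404165-67404464 on the minus strand. Cd68 held the letters on both strands, with first bases at positions -27 and 5 from the gene start. In Trem2, Lyz2, Laptm5 and Gpnmb the first base lay at -29, -46, -63 and -181. A match describes the letters alone and does not show binding.
Trem2: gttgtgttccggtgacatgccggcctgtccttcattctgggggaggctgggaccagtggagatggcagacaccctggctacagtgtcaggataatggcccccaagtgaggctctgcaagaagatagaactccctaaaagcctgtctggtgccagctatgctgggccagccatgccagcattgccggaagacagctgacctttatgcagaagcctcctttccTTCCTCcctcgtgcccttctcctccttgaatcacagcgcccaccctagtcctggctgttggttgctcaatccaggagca
Cd68: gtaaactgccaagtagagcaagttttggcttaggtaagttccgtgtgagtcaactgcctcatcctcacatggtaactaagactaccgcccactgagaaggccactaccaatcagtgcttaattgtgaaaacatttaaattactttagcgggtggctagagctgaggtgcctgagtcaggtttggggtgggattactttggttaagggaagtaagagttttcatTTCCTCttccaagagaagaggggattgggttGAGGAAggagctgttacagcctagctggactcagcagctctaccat
Gpnmb: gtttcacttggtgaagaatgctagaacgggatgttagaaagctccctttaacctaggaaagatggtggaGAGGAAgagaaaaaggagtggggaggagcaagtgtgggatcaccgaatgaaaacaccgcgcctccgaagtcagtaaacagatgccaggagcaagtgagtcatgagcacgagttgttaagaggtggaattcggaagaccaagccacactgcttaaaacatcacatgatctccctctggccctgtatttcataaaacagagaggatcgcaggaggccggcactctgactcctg
Laptm5: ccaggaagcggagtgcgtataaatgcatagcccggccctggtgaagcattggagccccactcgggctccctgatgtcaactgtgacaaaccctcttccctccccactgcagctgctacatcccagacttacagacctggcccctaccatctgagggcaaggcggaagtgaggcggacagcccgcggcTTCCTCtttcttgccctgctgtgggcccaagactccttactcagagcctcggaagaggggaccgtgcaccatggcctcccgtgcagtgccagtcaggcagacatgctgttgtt
Lyz2: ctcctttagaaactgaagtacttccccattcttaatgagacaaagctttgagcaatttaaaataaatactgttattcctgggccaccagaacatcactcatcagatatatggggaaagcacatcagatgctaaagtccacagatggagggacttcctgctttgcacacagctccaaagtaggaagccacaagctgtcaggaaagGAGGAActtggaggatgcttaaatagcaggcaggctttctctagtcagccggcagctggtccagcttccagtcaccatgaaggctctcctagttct
Coro1a: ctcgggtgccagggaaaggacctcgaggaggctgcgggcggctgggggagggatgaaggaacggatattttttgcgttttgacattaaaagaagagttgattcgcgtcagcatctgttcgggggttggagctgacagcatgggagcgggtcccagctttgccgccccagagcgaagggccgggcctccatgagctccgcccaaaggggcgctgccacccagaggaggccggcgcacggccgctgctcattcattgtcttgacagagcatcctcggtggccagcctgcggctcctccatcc
Cyba: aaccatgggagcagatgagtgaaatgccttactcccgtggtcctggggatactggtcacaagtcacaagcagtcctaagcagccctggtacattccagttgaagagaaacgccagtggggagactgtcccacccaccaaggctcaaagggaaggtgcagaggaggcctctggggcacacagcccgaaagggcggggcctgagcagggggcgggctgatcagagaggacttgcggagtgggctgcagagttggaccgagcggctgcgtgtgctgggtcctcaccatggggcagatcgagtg

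Values are log2 processed signals minus the array's own 75th percentile, so that 0 marks that percentile, and differences between groups are on the same log2 scale with their standard error (SE) from limma. A gene passed the test where limma's p, adjusted by Benjamini-Hochberg over all genes, was under 0.05. The normal arrays were dimmer, at a 75th percentile of 82.3 to 179 where carcinoma arrays had 276 to 1242. Spots well above background made up 48.7 to 54.2% of the normal arrays and 58.0 to 71.0% of the others. The normal arrays shared slide 4 and a scanner of their own, so scan and group cannot be told apart in the comparisons with normal tissue. Probes of different genes are not set against each other.

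IR-7W carcinomas carried less RNA of 11 of the 34 macrophage and myeloid genes than normal tissue, relative to each array's 75th percentile. None of the 34 was higher in limma, where 8.9% of all 25391 genes tested were lower and 11.9% higher (20.8% in either direction). At an unadjusted p under 0.05, 17 were lower and 1, Itgam, was higher, where 16.6% of all genes were lower and 18% higher. The median difference over the 34 was -1.05, against -0.02 over all genes, and 28 of the 34 had a negative difference. In 16 of the 34 all 6 IR-7W carcinomas lay below all 3 normal samples, as in 14.1% of all genes. The genes that fell were the receptor Trem2, the adaptors Fcer1g and Tyrobp, the lysosomal proteins Gpnmb, Cd68, Laptm5 and Lyz2, the integrin chain Itgb2, the actin regulator Coro1a, the oxidase subunit Cyba and the transcription factor Spi1. Normexp background correction, in place of the scanner's own, gave a median of -0.55 over all genes and of -0.98 over the 34, and 17 genes were then lower, where 42.1% of all genes were. Leaving out normal 1 left 4 of the calls (Fcer1g, Gpnmb, Trem2 and Tyrobp), where 3.95% of all genes were lower. Leaving out normal 2, normal 3 or IR-7W 3 gave 7 each, where 4.26, 5.75 and 6.93% of all genes were lower.

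**Figure D1:**
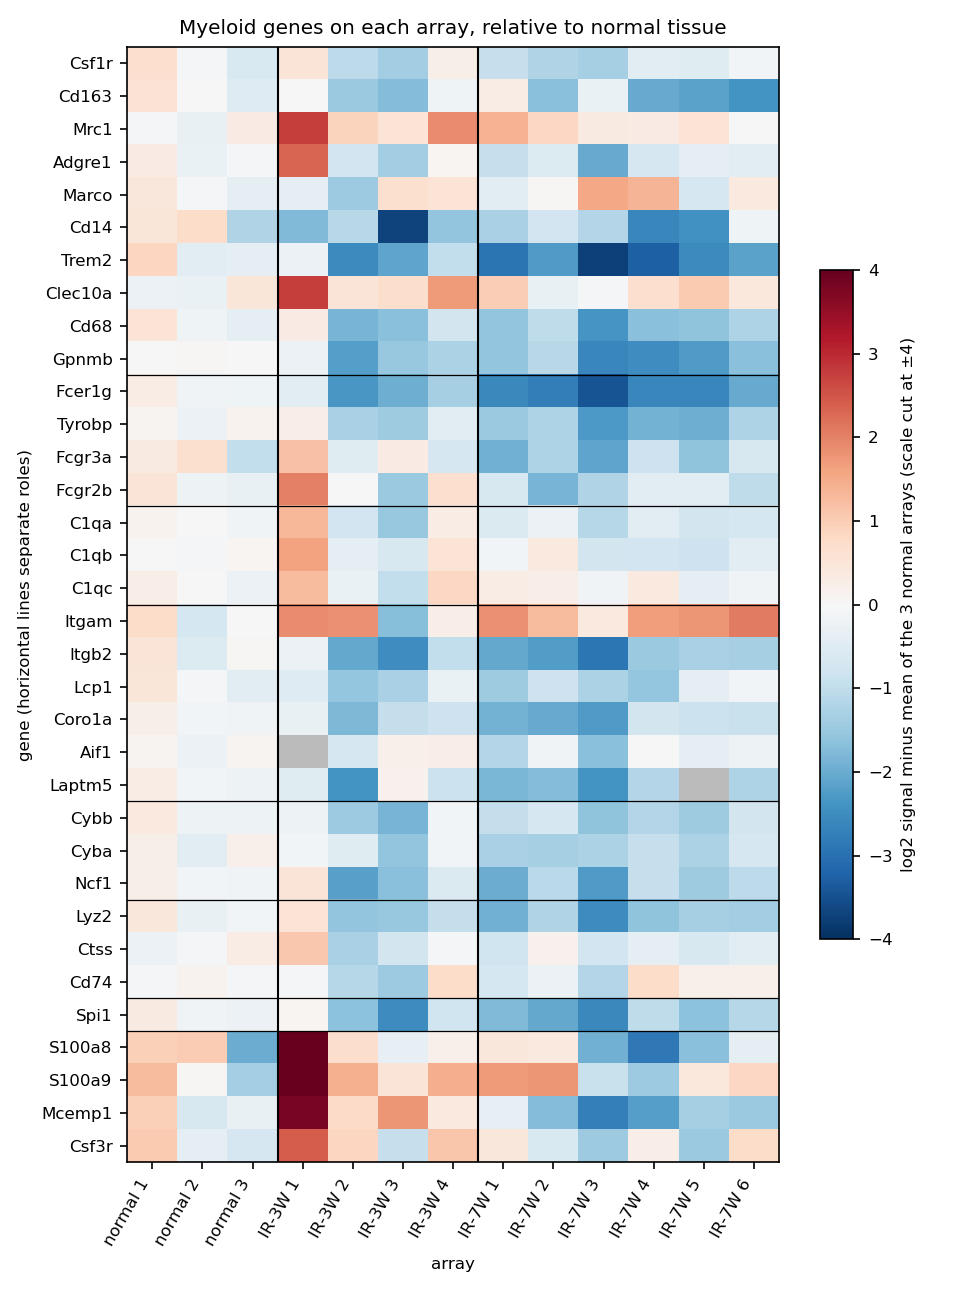
Each row is a gene, grouped by role, and each column an array, and the colour gives the log2 signal minus the mean of the 3 normal arrays, with grey for a spot left out. Rows of the adaptors and of Trem2, Cd68 and Gpnmb are below normal on all 6 IR-7W arrays, and IR-3W 1 stands out as high in the S100a8, S100a9 and Mcemp1 rows.

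Among the adaptors, Fcer1g, the gamma chain shared by Fc receptors, showed the clearest separation. It stood at 4.72, 4.30 and 4.26 in normal tissue, at 4.02, 2.10, 2.48 and 3.09 in IR-3W carcinomas, and between 0.99 and 2.42 with a median of 1.82 in IR-7W carcinomas. All 10 carcinomas lay below the lowest normal sample, and IR-3W 1 came nearest to it. The difference from normal was -2.67 ± 0.39 in IR-7W (adjusted p = 0.000504) and -1.50 ± 0.42 in IR-3W (adjusted p = 0.0314). Both comparisons used the same normal arrays. Its call in IR-3W was lost under 8 of 22 alternatives.

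Tyrobp, the adaptor also called DAP12, stood at 5.56, 5.22 and 5.60 in normal tissue and between 3.17 and 4.24, with a median of 3.79, in IR-7W carcinomas, a difference of -1.67 ± 0.37 (adjusted p = 0.00739). The groups did not overlap. In IR-3W carcinomas it was 5.73, 4.17, 4.04 and 5.03, so that IR-3W 1 lay above all normal samples and the difference of -0.71 ± 0.40 did not pass (adjusted p = 0.259). The Fc receptors themselves did not pass in either group. Fcgr3a, an activating IgG receptor, differed from normal by -1.40 ± 0.49 in IR-7W (adjusted p = 0.0584) and by 0.09 ± 0.52 in IR-3W, and Fcgr2b, the inhibitory one, by -0.93 ± 0.59 and 0.31 ± 0.63.

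Trem2, a lipid-sensing receptor that signals through Tyrobp, had the most negative difference of the 34 genes in IR-7W, -2.82 ± 0.52 (adjusted p = 0.00252). It stood at 6.02, 4.71 and 4.78 in normal tissue, at 4.94, 2.62, 3.06 and 4.20 in IR-3W carcinomas, and from 1.42 to 3.03 with a median of 2.43 in IR-7W carcinomas. Every IR-7W carcinoma was below every normal sample, while IR-3W 1 lay within the normal range and the other IR-3W carcinomas below it. The IR-3W difference was -1.47 ± 0.56 (adjusted p = 0.101).

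Cd68, a glycoprotein of the macrophage lysosome, fell in IR-7W by 1.57 ± 0.45 (adjusted p = 0.0274), from 4.77, 4.03 and 3.81 to a range of 1.86 to 3.20 with a median of 2.62. Its IR-3W values were 4.55, 2.34, 2.54 and 3.48, again with IR-3W 1 inside the normal range and the other 3 carcinomas below it. Gpnmb, a transmembrane glycoprotein of phagosomes that is abundant in lipid-laden macrophages, was tight in normal tissue at 5.32, 5.39 and 5.33. It ranged from 2.75 to 4.25 with a median of 3.38 in IR-7W, a difference of -1.95 ± 0.42 (adjusted p = 0.00595). In IR-3W it was 5.13, 3.14, 3.83 and 4.07, all below normal, and the difference of -1.30 ± 0.45 did not pass (adjusted p = 0.0709).

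**Figure D2:**
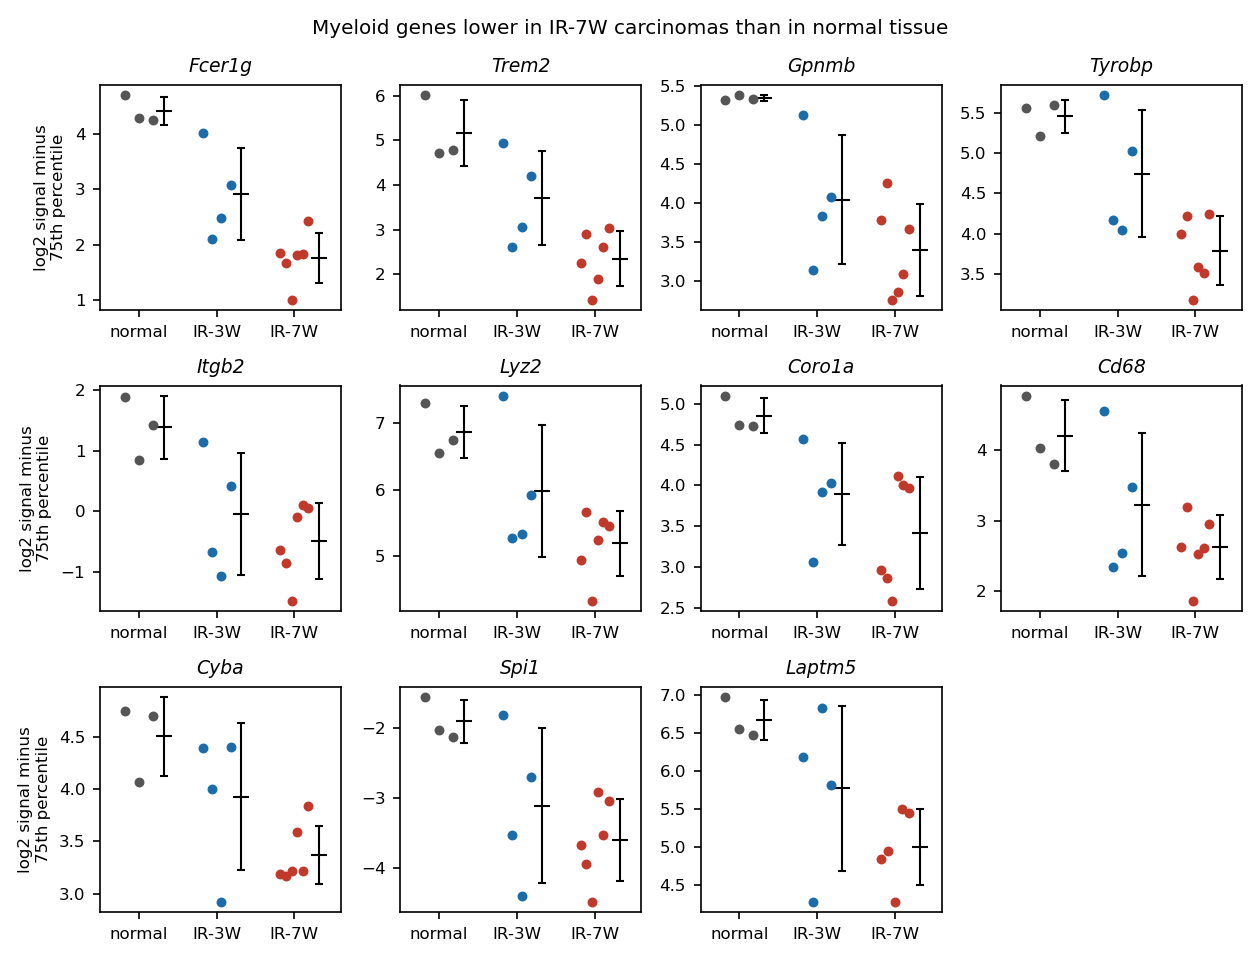
Each panel shows the log2 signal, relative to that array's 75th percentile, for a gene that passed as lower in IR-7W carcinomas, with 1 point per array and the group mean and SD beside the points. The IR-7W points lie below all normal points in each panel, and the highest IR-3W point often reaches the normal range.

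The remaining surface receptors did not pass as lower. Csf1r, the receptor that macrophages need for survival, differed from normal by -0.74 ± 0.45 in IR-7W and by -0.41 ± 0.49 in IR-3W (adjusted p = 0.276 and 0.619). Cd163, the scavenger receptor for haemoglobin, differed by -1.37 ± 0.62 and -0.84 ± 0.67, and Adgre1, the macrophage marker known in mice as F4/80, by -0.83 ± 0.65 and 0.06 ± 0.70. Cd14, the co-receptor for bacterial lipopolysaccharide, had the most negative IR-3W difference of the 34 genes, -2.04 ± 0.72, but missed the threshold (adjusted p = 0.0755), as did its IR-7W difference of -1.41 ± 0.66 (adjusted p = 0.153). Normal samples were at 7.09, 7.32 and 5.40, the IR-3W carcinomas at 4.84, 5.48, 2.90 and 5.02, and the IR-7W carcinomas from 3.98 to 6.44 with a median of 5.37. The lowest normal sample lay inside both carcinoma ranges. Marco, a scavenger receptor, cleared background on 0 normal, 1 IR-3W and 2 IR-7W arrays, so its level is not resolved here.

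Mrc1, the mannose receptor CD206, was the only one of the 34 genes that was higher in IR-3W carcinomas than in normal tissue. It stood at 1.24, 1.01 and 1.63 in normal tissue, at 4.06, 2.19, 1.86 and 3.18 in IR-3W carcinomas and from 1.28 to 2.70 with a median of 1.76 in IR-7W carcinomas. The IR-3W carcinomas all lay above normal, with a difference of 1.53 ± 0.48 (adjusted p = 0.0496), and the IR-7W range overlapped it, with a difference of 0.58 ± 0.44. The second Mrc1 probe, which was dimmer, went the other way, by -0.22 in IR-3W and -0.90 in IR-7W, and the mean of both probes gave 0.65 in IR-3W (adjusted p = 0.427). The call was lost under 15 of 22 alternatives, among them leaving out IR-3W 1 (1.11, adjusted p = 0.0958). Clec10a, a lectin that binds galactose sugars on macrophages and dendritic cells, also lay above normal in all 4 IR-3W carcinomas. Its values of 3.91, 1.63, 1.82 and 2.82 stood against 0.91, 0.85 and 1.62, and the difference of 1.42 ± 0.51 did not pass (adjusted p = 0.0837).

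The 3 C1q chains, which together form the recognition unit of the classical complement pathway, did not pass in either tumour group. C1qb stood at 5.75, 5.72 and 5.86 in normal tissue, at 7.38, 5.42, 5.14 and 6.32 in IR-3W and from 4.96 to 6.18 with a median of 5.20 in IR-7W. The IR-7W differences were -0.64 ± 0.48 for C1qa, -0.41 ± 0.43 for C1qb and 0.04 ± 0.41 for C1qc, and the IR-3W differences were -0.16 ± 0.51, 0.29 ± 0.47 and 0.21 ± 0.45. IR-3W 1 was the highest of the 13 arrays for each chain, and IR-3W 3 the lowest for C1qa and C1qc.

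Itgb2, the beta2 chain shared by the leukocyte integrins, stood at 1.89, 0.85 and 1.43 in normal tissue and from -1.49 to 0.10 with a median of -0.37 in IR-7W, a difference of -1.88 ± 0.49 (adjusted p = 0.0176) with no overlap. In IR-3W it was 1.14, -0.67, -1.08 and 0.41, with only IR-3W 1 inside the normal range, and the difference of -1.44 ± 0.53 did not pass (adjusted p = 0.0899). Itgam, the alpha chain that pairs with it in macrophages and neutrophils, was -2.18, -3.61 and -2.91 in normal tissue and -2.51 to -0.83 with a median of -1.17 in IR-7W. Its difference was positive, 1.51 ± 0.69, and did not pass (adjusted p = 0.14). In IR-3W its values of -1.01, -1.06, -4.61 and -2.62 spread across both other groups. The Itgam probe rose well above background on 2 normal, 3 IR-3W and 6 IR-7W arrays.

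Coro1a, an actin-binding protein of leukocytes, fell in IR-7W by 1.44 ± 0.41 (adjusted p = 0.0254), from 5.10, 4.74 and 4.73 to a range of 2.58 to 4.12 with a median of 3.46. In IR-3W it was 4.57, 3.06, 3.92 and 4.03, all below normal (-0.96 ± 0.44, adjusted p = 0.166). Laptm5, a lysosomal membrane protein of blood cells, fell in IR-7W by 1.67 ± 0.49 (adjusted p = 0.0321), from 6.98, 6.56 and 6.48 to 4.27 to 5.50 with a median of 4.95 over 5 arrays, since its spot on IR-7W 5 was marked as an outlier and left out. In IR-3W Laptm5 was 6.19, 4.27, 6.83 and 5.81, and IR-3W 3 lay among the normal samples. Lcp1, which bundles actin, and Aif1, the macrophage marker Iba1, did not pass. Lcp1 differed by -0.92 ± 0.39 in IR-7W and -0.91 ± 0.42 in IR-3W, and Aif1 by -0.59 ± 0.38 and -0.06 ± 0.44, the latter over 3 IR-3W arrays because the spot on IR-3W 1 was left out.

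Of the subunits of the phagocyte oxidase, which makes superoxide, Cyba passed in IR-7W. It stood at 4.74, 4.07 and 4.70 in normal tissue and from 3.17 to 3.84 with a median of 3.22 in IR-7W, a difference of -1.13 ± 0.33 (adjusted p = 0.028). The IR-3W values were 4.39, 4.00, 2.92 and 4.40, and 2 of them lay inside the normal range. Its partner in the membrane, Cybb, differed by -1.09 ± 0.39 in IR-7W, and Ncf1, the cytosolic organiser, by -1.46 ± 0.51. Both missed the threshold (adjusted p = 0.0646 and 0.0585), although all 6 IR-7W carcinomas lay below all normal samples for each. The IR-3W differences were -0.57 ± 0.35 for Cyba, -0.91 ± 0.42 for Cybb and -0.97 ± 0.55 for Ncf1, and none passed.

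Lyz2, the lysozyme of macrophages, stood at 7.30, 6.55 and 6.74 in normal tissue and from 4.33 to 5.66 with a median of 5.35 in IR-7W carcinomas, a difference of -1.67 ± 0.45 (adjusted p = 0.019). In IR-3W it was 7.41, 5.28, 5.34 and 5.92. IR-3W 1 was above every normal sample and the other 3 below, and the difference of -0.88 ± 0.48 did not pass (adjusted p = 0.246). Ctss, the protease cathepsin S, differed by -0.47 ± 0.42 in IR-7W and -0.25 ± 0.45 in IR-3W. Cd74, the invariant chain that escorts MHC class II molecules, differed by -0.16 ± 0.49 and -0.49 ± 0.52, so neither antigen-handling gene passed.

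Spi1, which encodes PU.1, stood at -1.55, -2.03 and -2.12 in normal tissue and from -4.49 to -2.92 with a median of -3.60 in IR-7W, a difference of -1.70 ± 0.49 (adjusted p = 0.0281) with no overlap. In IR-3W carcinomas it was -1.81, -3.53, -4.40 and -2.70. IR-3W 1 lay within the normal range and the other 3 below it, and the difference of -1.21 ± 0.53 did not pass (adjusted p = 0.149). Its probe cleared background on every array except 1 of IR-3W.

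**Figure D3:**
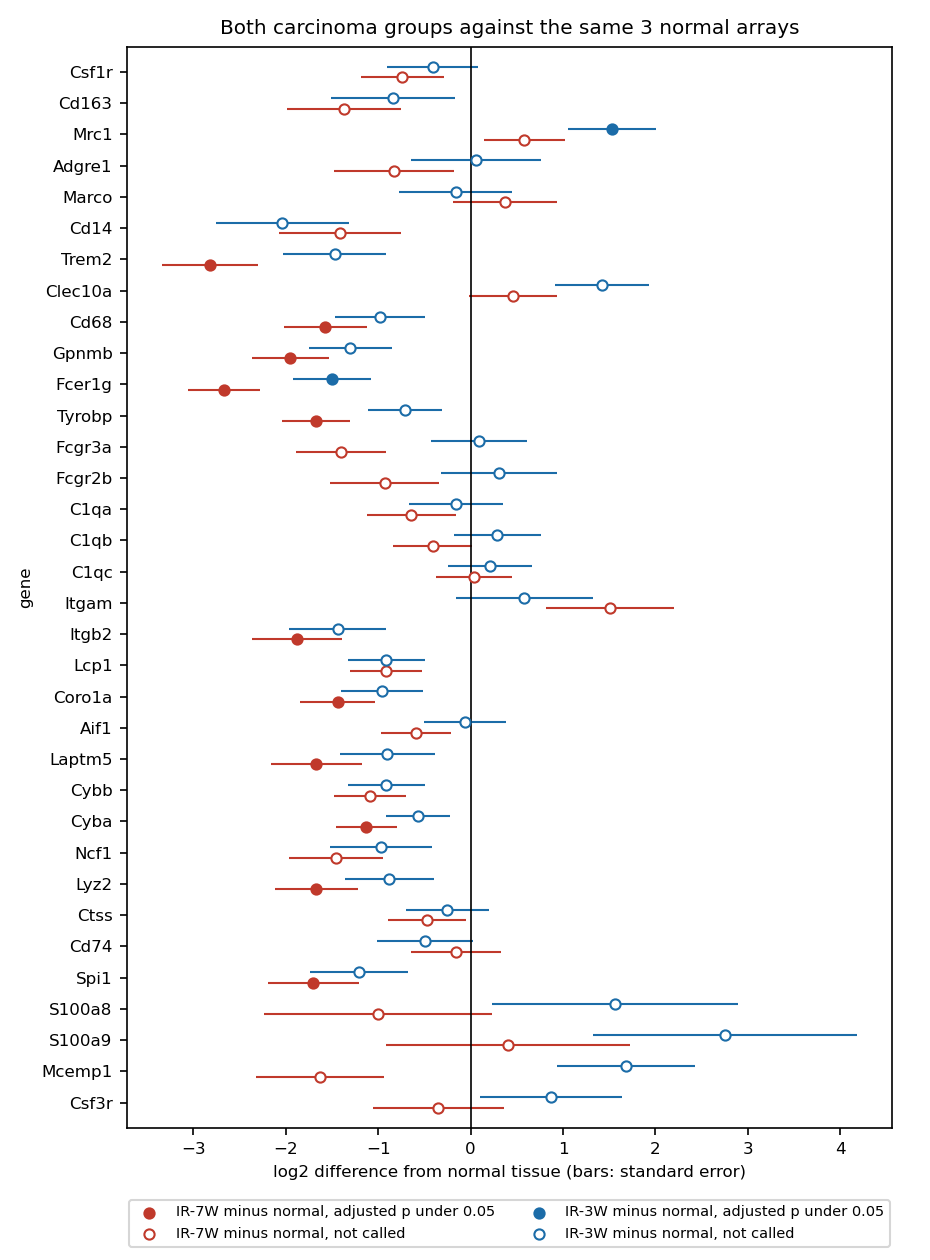
Points give each gene's log2 difference from normal tissue in IR-7W (red) and IR-3W (blue) carcinomas, bars the standard error, and filled points an adjusted p under 0.05 in limma. Both series use the same 3 normal arrays, with 11 filled points to the left for IR-7W and 1 on each side, Fcer1g and Mrc1, for IR-3W.

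IR-3W carcinomas as a group differed from normal tissue in 2 of the 34 genes, Mrc1 higher and Fcer1g lower, where 9.23% of all genes were higher and 5.4% lower (14.6% in either direction). At an unadjusted p under 0.05, 3 were higher and 7 lower, where 15.7% of all genes were higher and 13.9% lower. The median difference over the 34 was -0.45, against -0.01 over all genes, and 22 of the 34 were negative. All 4 carcinomas lay below normal for Fcer1g, Gpnmb and Coro1a (11.5% of all genes) and above it for Mrc1 and Clec10a (13.4% of all genes). IR-3W 1 was the highest of the 10 carcinomas for 24 of the 34 genes, with a median of 1.59 above the carcinoma mean of each gene. Without it, 7 genes were lower and 0 higher, where 4.89% of all genes were lower and 8.15% higher, and the median was -0.71. The 7 were Trem2 (-1.88), Fcer1g (-1.87), Itgb2 (-1.83), Gpnmb (-1.67), Spi1 (-1.64), Cd68 (-1.42) and Lyz2 (-1.35). Leaving out IR-3W 2 or IR-3W 3 gave 2 higher (Clec10a and Mrc1) and 0 lower, with medians of -0.24 and -0.21. Of all genes 8.38 and 11% were then higher and 4.16 and 8.68% lower. Leaving out IR-3W 4 gave 0 called, with a median of -0.68, where 7.72% of all genes were higher and 3.66% lower. With normexp correction 0 of the 34 passed in limma, where 3.09% of all genes were higher and 1.57% lower. At an unadjusted p under 0.05, 2 were then higher and 5 lower, where 7.19% of all genes were higher and 8.38% lower. The normexp medians were -0.21 over all genes and -0.24 over the 34.

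**Figure D4:**
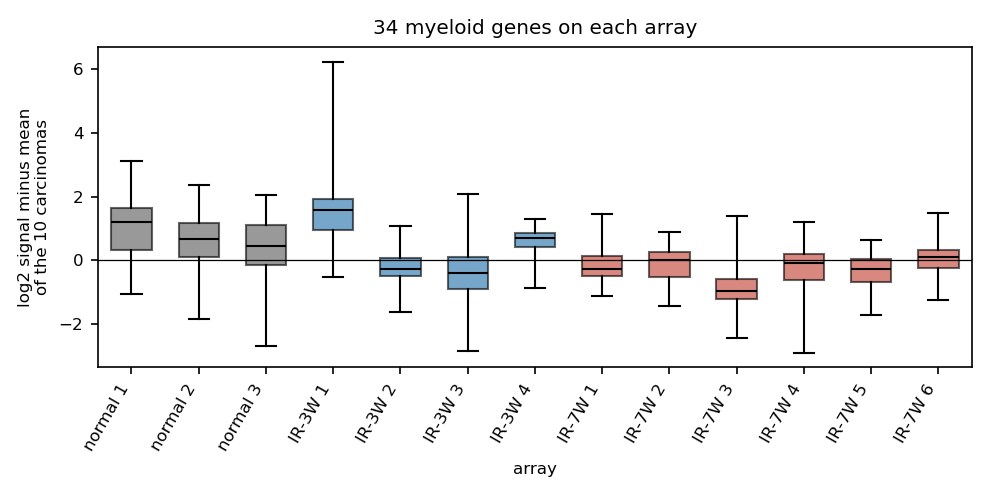
Boxes show, for each array, the median and quartiles over the genes of the log2 signal minus the gene's mean over the 10 carcinomas, and whiskers reach the lowest and highest gene. Among carcinomas the median was highest in IR-3W 1 (1.59) and IR-3W 4 (0.69) and lowest in IR-7W 3 (-0.95).

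Single carcinomas spread widely. IR-3W 4 followed IR-3W 1, with a median of 0.69 above the carcinoma mean, while IR-3W 2 and IR-3W 3 lay at -0.28 and -0.41. The IR-3W group thus held the highest carcinomas and others within the range of the IR-7W group. The IR-7W carcinomas other than IR-7W 3 lay between -0.28 and 0.12, and IR-7W 3, at -0.95, was the lowest of the 10 for 14 of the 34 genes. The normal samples lay at 1.20, 0.68 and 0.46 on this scale, with normal 1 the highest of all 13 arrays for 12 genes. Normal 1 was also the dimmest array, and the part of signal brightness in its level was not tested.

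The direct comparison of the carcinoma groups asked whether age at irradiation went with a different myeloid signal in the tumours. IR-3W 3 and IR-3W 4 lay on slide 3, and IR-7W 2, IR-7W 3, IR-7W 4 and IR-7W 6 on slide 1. Only slide 2 held both groups, so slide and age at irradiation largely coincide. Of the 34 genes 1, Mcemp1, was called higher in IR-3W than in IR-7W and 0 were lower in limma, where 0.591% of all genes were higher and 0.15% lower (0.74% in either direction). At an unadjusted p under 0.05, 9 were higher and 0 lower, where 6.62% of all genes were higher and 5.74% lower. The median difference was 0.58, against 0 over all genes, with 4 of the 34 negative. Without IR-3W 1 the median was 0.25 and 10 were negative. None of the 11 genes that were lower than normal in IR-7W passed this test, so a difference between the carcinoma groups was not shown for them. Fcer1g was nearest, at 1.16 ± 0.36 (adjusted p = 0.178), followed by Trem2 at 1.35 ± 0.48 (adjusted p = 0.253) and Tyrobp at 0.96 ± 0.34 (adjusted p = 0.255). Fcgr3a, not among the 11, differed by 1.48 ± 0.44 (adjusted p = 0.165). With normexp correction 6 of the 34 were higher, where 27.0% of all genes were, with medians of 0.39 over all genes and 0.49 over the 34.

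Mcemp1 encodes a membrane protein named for its expression in mast cells and is also found in monocytes and neutrophils in humans. It stood at -1.33, -4.34, -3.36 and -4.74 in IR-3W carcinomas and from -7.85 to -5.46 with a median of -6.73 in IR-7W carcinomas. All IR-3W values lay above all IR-7W values, as in 1.57% of all genes, while for 0 of the 34 they all lay below, as in 1.34%. Its signal cleared background on 4 IR-3W arrays, 1 IR-7W array and 0 of the normal arrays, which were at -4.18, -5.77 and -5.42. The probe therefore passed the filter only through the group in which it was high, and its IR-7W level lies mostly at background. The fitted difference was 3.31 ± 0.63 (adjusted p = 0.0388), and 1.47 ± 0.31 with normexp (adjusted p = 0.0147), so its size is not resolved. Against normal tissue the fitted IR-3W difference was 1.68 ± 0.75, or 3.21-fold, and did not pass (adjusted p = 0.155). IR-3W 2 and IR-3W 4 lay below normal 1. Without IR-3W 1 the difference between the carcinoma groups was 2.61 (adjusted p = 0.0237). On slide 2, the only slide with both groups, it was 3.12 ± 1.12 over 2 arrays each (adjusted p = 1). The call was lost under 15 of 21 alternatives. Among these are slide 2 alone and a replicate block, under which 0 of all 25392 genes passed. The summed mast cell markers, in multiples of the 75th percentile, were 32.8, 0.531, 0.541 and 2.17 in the IR-3W carcinomas and from 0.834 to 50.9 with a median of 13.5 in IR-7W, and their part in the Mcemp1 level was not tested.

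S100a8 and S100a9, the chains of calprotectin, and Csf3r, the receptor for the granulocyte growth factor, did not pass in any comparison. S100a8 stood at -0.67, -0.58 and -3.58 in normal tissue, at 4.04, -0.91, -1.93 and -1.40 in IR-3W and from -4.48 to -1.17 with a median of -2.64 in IR-7W. S100a9 stood at -1.26, -2.48 and -3.89, at 5.03, -1.11, -2.02 and -1.09, and from -4.00 to -0.76 with a median of -1.91. IR-3W 1 alone was far above every other array for both, and it was also the highest for Mcemp1 and, at -3.00, for Csf3r. The S100a8 difference between the carcinoma groups was 2.56 ± 1.12 with IR-3W 1 and 1.20 without it, and that of S100a9 was 2.34 ± 1.21 with it and 0.73 without it. Csf3r cleared background on 0 normal, 3 IR-3W and 3 IR-7W arrays.

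**Figure D5:**
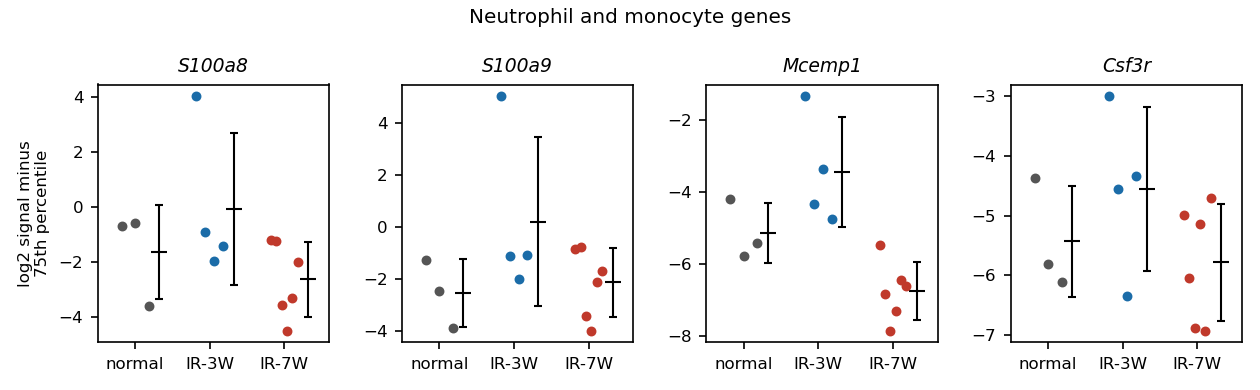
Panels show the log2 signal, relative to that array's 75th percentile, for the neutrophil and monocyte genes, with 1 point per array and the group mean and SD beside the points. IR-3W 1 lies at 4.04 for S100a8 and 5.03 for S100a9, above all other arrays, and all IR-3W points for Mcemp1 lie above all IR-7W points.

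Other genes of the same pathways were read from lists of 121 genes, of which 94 were tested. In IR-7W 19 (20.2%) were lower and 1 (1.06%) higher, with a median of -0.77, where 8.9% of all genes were lower and 11.9% higher. In IR-3W 2 (2.13%) were lower and 1 (1.06%) higher, with a median of -0.32, where 5.4% of all genes were lower and 9.23% higher. Between the carcinoma groups 2 (2.13%) were higher in IR-3W and 0 lower, where 0.591% of all genes were higher and 0.15% lower. The counts of each list below stand beside these same shares of all genes. The myeloid transcription factors had 5 of 8 lower in IR-7W, among them Cebpe, a factor of granulocyte maturation, at -2.43 ± 0.40 (adjusted p = 0.00122), and Nr1h3, the oxysterol receptor LXR alpha, at -1.53 ± 0.32 (adjusted p = 0.00561). Cebpe cleared background on 3 normal, 3 IR-3W and 3 IR-7W arrays, so the size of its difference is poorly resolved. Of the growth factors and cytokine receptors 1 of 5 was lower, Csf1, the ligand of Csf1r, at -1.42 ± 0.30 (adjusted p = 0.00532), from 2.57, 1.96 and 2.73 in normal tissue to a range of 0.28 to 1.42. In IR-3W Csf1 was 2.44, 1.56, 2.26 and 2.13, above all IR-7W carcinomas, and the difference between the carcinoma groups of 1.09 ± 0.27 did not pass (adjusted p = 0.0915).

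Of 8 integrins and leukocyte-wide genes 4 were lower in IR-7W. Cd48, a surface protein of most leukocytes, was at 2.08, 1.93 and 1.65 in normal tissue and below that in all 10 carcinomas, by -1.95 ± 0.28 in IR-7W (adjusted p = 0.000414) and -1.68 ± 0.30 in IR-3W (adjusted p = 0.00264). Cd37, a leukocyte tetraspanin, fell in IR-7W by 1.73 ± 0.43 (adjusted p = 0.0143). Among the immunoreceptor signalling genes, the adaptor Dok3 fell by 1.24 ± 0.32 in IR-7W (adjusted p = 0.0174). Of 8 Fc and pattern receptors 1 was lower, Tlr2, the receptor for bacterial lipoproteins (-1.30 ± 0.42, adjusted p = 0.0439). None of 3 oxidase partners and none of 6 MHC class II genes passed in either tumour group, the latter with medians of -0.12 in IR-7W and -0.19 in IR-3W.

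Of 11 phagocytosis and scavenger receptors 3 were lower in IR-7W and 1 in IR-3W. Cd36, a fatty acid and lipoprotein receptor that fat cells and endothelium also carry, was 5.42, 5.33 and 5.17 in normal tissue and -1.44 to 2.86 in IR-7W (-5.36 ± 1.18, adjusted p = 0.00697). In IR-3W it was -0.30, -1.05, 4.94 and 0.09 (-4.39 ± 1.27, adjusted p = 0.0358), and IR-3W 3, the exception, also had the highest summed adipocyte and endothelial markers among the carcinomas. Colec12, a scavenger receptor of endothelium and stroma, was lower in IR-7W than in normal tissue (-1.08 ± 0.31, adjusted p = 0.0272) and higher in IR-3W than in IR-7W (1.51 ± 0.28, adjusted p = 0.0383). Of 13 lysosomal genes the protease Ctsh fell in IR-7W (-1.17 ± 0.27, adjusted p = 0.00866), and Ctsk, the collagen-degrading cathepsin K, rose in IR-3W (1.84 ± 0.43, adjusted p = 0.0134).

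Of 14 macrophage cytokines and effectors 1 was higher and 1 lower in IR-7W. Il18, a cytokine that epithelium also makes, stood at -0.15, -0.41 and -0.78 in normal tissue, at 1.79, -0.19, 0.18 and 1.14 in IR-3W and from 1.49 to 3.63 in IR-7W. It was higher in IR-7W than in normal tissue by 2.96 ± 0.49 (adjusted p = 0.00114) while the median of the 14 genes was -0.90. Il1rn, the interleukin 1 receptor antagonist, fell in IR-7W by 1.93 ± 0.51 (adjusted p = 0.0183). Of 7 neutrophil genes 1 passed, S100a4, which fibroblasts also make. It was lower in IR-7W than in normal tissue (-1.55 ± 0.42, adjusted p = 0.0208) and higher in IR-3W than in IR-7W (2.17 ± 0.38, adjusted p = 0.0306), with 5.47, 5.59, 5.32 and 6.23 in IR-3W against 2.61 to 4.44 in IR-7W.

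Markers of other cell types changed beside these genes, given here as summed linear levels in multiples of the array's 75th percentile. Of all genes 8.9% were lower and 11.9% higher than normal in IR-7W, and 5.4% and 9.23% in IR-3W. Between the carcinoma groups 0.591% of all genes were higher in IR-3W. The 8 adipocyte markers summed to 268 to 313 in normal tissue, 9.21 to 105 in IR-3W and 7.89 to 12.2 in IR-7W, with 8 of 8 lower in IR-7W and 7 of 8 in IR-3W. The 7 endothelial markers summed to 30.8 to 46.0, 10.2 to 81.9 and 7.52 to 12.4, with 5 lower in IR-7W and 2 in IR-3W. The 9 fibroblast markers were 212 to 269, 462 to 1500 and 128 to 297, with 5 higher in IR-3W and 3 lower in IR-7W against normal, and 6 higher in IR-3W than in IR-7W. The 7 myoepithelial markers were 71.7 to 106, 29.1 to 143 and 36.9 to 124, with 4 lower in IR-3W and 1 in IR-7W. The 12 markers of T and NK cells had ranges of 10.6 to 13.4, 2.89 to 15.5 and 3.15 to 12.7, and none passed. Their median difference from normal was -0.94 in IR-7W and -0.91 in IR-3W, with 11 of 12 negative in each. Over all genes these medians were -0.02 and -0.01, and over the 34 myeloid genes -1.05 and -0.45. Luminal epithelial markers, which define the labelled mammary tissue, were present on every array, with at least 9 of 10 well above background. They summed to 416 to 495 in normal tissue, 214 to 620 in IR-3W and 431 to 719 in IR-7W. Against normal 1 of the 10 was higher in IR-7W and 0 were called in IR-3W. Between the carcinoma groups 2 were lower in IR-3W, where 0.15% of all genes were, with a median of -0.68. Of 8 B and plasma cell markers only 4 had a probe and 1 was tested. The part of these shifts in the lower myeloid levels was not tested.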

How the data were processed

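RNA of 13 mammary samples was measured on 1-colour Agilent rat arrays. Per the file headers, the deposited values were processed green intensity, background-subtracted by the authors with Feature Extraction 10.7.3.1, and the build was rn4. A second deposited table held log2 values, of which 99.4 to 99.6% per array lay within 0.01 of the values used here minus the normal mean plus an array constant of -0.033 to 0.013. Its scale and centring are not given in the sources used here, its column medians were -0.20 to 0.05 and 29.5 to 52.2% of its entries per array were blank, so it served as an alternative. The channel 2 of the labels is the normal mean, not a hybridised RNA.

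Control and outlier spots were left out, log2 signals were centred on each array's 75th percentile and spots of a probe were averaged. Probes well above background on at least 3 arrays were kept (29339 of 41012), with the brightest probe for each gene. Symbols came from RefSeq (GRCr8) by accession and covered 16815 probes, and of the 25392 features, called genes, 10540 had one. The 13 arrays entered 1 limma 3.58.1 fit (lmFit, eBayes, R 4.3.3, data.table version 1.17.8) with two-sided p-values adjusted by Benjamini-Hochberg. For a gene below background on all arrays of a group, the size of a difference from that group is not resolved. The steps were tested on simulated data, and precision is limited by the number of arrays. The members, lists and tests were chosen with earlier results of these data known. Every member is accounted for, those that passed are given by array, and of the other pathway genes at most 2 per list and comparison, with the smallest adjusted p, are named, except for a result not reported here. Alternatives covered background correction, normalization, filters, probes, slide, the groups fitted, the deposited values, a replicate block and leaving out each array. Normexp used the median signal, since the files held no mean signal, and was chosen after seeing the data.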

Additional observations from a re-analysis of the deposited data

Results flagged for a closer look

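A sample far from the others of its group was sought over 67 sets of a gene and a group, and 3 were found by Dixon's test at 95%, which chance alone gives in about 1 in 20 sets. S100a8 in IR-3W 1 was 4.04 against -0.91 in the next IR-3W carcinoma. S100a9 in IR-3W 1 was 5.03 against -1.09. Adgre1 in IR-7W 3 was -1.02 against 0.07 in the next lowest IR-7W carcinoma. Mcemp1 differed between the carcinoma groups, by 3.31 on the log2 scale, with 5 of 6 IR-7W arrays not well above background.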

How the results depend on the processing

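Over the alternatives to the 14 passing results of single genes, 237 kept the call, 69 lost it and 0 reversed. Fcer1g, Trem2 and Tyrobp in IR-7W against normal kept theirs under all 22. In that comparison Cyba and Laptm5 lost theirs under 7 of 22 each, and Spi1 under 5 of 21. Cd68 lost its call under 4 of 22, Coro1a under 3, Itgb2 and Lyz2 under 2 each and Gpnmb under 1. The calls of Coro1a, Laptm5 and Spi1 were lost whichever normal array was left out. For IR-7W against normal, with 11 genes called, normexp on the median signal gave 17, and leaving out 1 array gave 4 to 14 in either direction. Quantile normalization called Marco higher, where 16.5% of all genes were higher. Itgam was called higher with only the 2 groups compared and without IR-3W 3, where 14.5 and 14.2% of all genes were higher. For IR-3W against normal, with 2 called, normexp gave 0, no filter on dim probes 4, the mean of all probes of a gene 1, slide as a random block 4, only the 2 groups compared 0, the deposited values 1, and leaving out 1 array 0 to 7. For IR-3W against IR-7W, with 1 called, normexp gave 6, while quantile normalization, slide 2 alone and only the 2 groups compared each gave 0, as did the filter on all 13 arrays and the deposited table, neither of which gave a value for Mcemp1, and leaving out 1 array 0 to 1. The cause was not tested.

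Over all genes, those lower than normal numbered 2260 in IR-7W and 1371 in IR-3W, against 10693 and 398 with normexp and 10347 and 8298 without the filter, while those higher numbered 3031 and 2343, against 2064 and 785 and 3426 and 2762. With the filter on all 13 arrays 1999 were lower and 1586 higher in IR-7W, and 1361 and 1260 in IR-3W. In IR-3W against normal, slide as a random block called 10.6% of all genes higher and 7.31% lower. The mean of all probes called 9.05% and 4.87%, the deposited values 8.3% and 5.21%, and only the 2 groups 5.11% and 1.77%. Leaving out 1 array made 3.95 to 12.3% of all genes lower than normal in IR-7W and 2.17 to 8.68% in IR-3W. Higher than normal were 7.83 to 14.2% and 6.11 to 11%. Between the carcinoma groups normexp gave 6853 higher and 664 lower, against 150 and 38. Quantile normalization gave 0.457% of all genes higher and 0.158% lower there, only the 2 groups 0.0748% and 0.0118%, and slide 2 alone 0 of 25392. The filter on all 13 arrays gave 1.03% and 0.278%, and the deposited values 0.416% and 0.12%. Leaving out 1 array gave 0.0866 to 1.21% higher.

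A replicate block gave 6 called in IR-7W against normal (Coro1a, Fcer1g, Itgb2, Spi1, Trem2 and Tyrobp). In IR-3W against normal it gave 2 (Mcemp1 higher and Fcer1g lower, with Mrc1 lost), and between the carcinoma groups 0. Of all genes it called 3.04% lower and 6% higher in IR-7W, 1.65% and 4.7% in IR-3W, and 0 of 25392 between the carcinoma groups. Arrays of the same number correlated in their deviations from the group means at -0.207 to 0.078 over 10 pairs. Pairs of different number, 44 in all, gave -0.327 to 0.382. These ranges overlap, and such correlations cannot show whether the numbers pair the samples. Signal over background limits Marco, Csf3r and Mcemp1, whose normal arrays were all below it.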
